A study of Mus musculus with 8 samples.

Results

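The genes described here are 9 genes of the B cell receptor complex and its nearby signalling proteins, namely Cd79a, Cd79b, Cd22, Cd72, Blk, Blnk, Btk, Bank1 and Ms4a1. They were taken by symbol from a table of read counts with 21878 gene symbols, and all 9 were present and had enough counts to be tested. The table came from RNA sequencing of peripheral blood from female C57BL/6 wild-type mice aged 6 to 8 weeks. The stress group (n = 4) was restrained for 6 hours in a tube with air holes, with neither food nor water, and the control group (n = 4) consisted of littermates left in the cage, which were given no food or water either. The labels do not say whether each sample came from a separate mouse, so that p-values measure the spread between these samples.

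The B cell receptor is a membrane immunoglobulin that carries no signalling tail of its own and depends on the CD79A and CD79B chains to pass a signal into the cell. When antigen binds, SRC family kinases such as BLK and LYN phosphorylate these chains, SYK docks on them, and the adaptor BLNK then brings BTK and phospholipase C gamma together, so that calcium and NF-kappaB signalling start. CD22 and CD72 are inhibitory coreceptors, which recruit the phosphatase SHP-1 and damp the signal. BANK1 is a B cell scaffold protein, and MS4A1, known as CD20, is a B cell surface protein used as a marker of mature B cells.

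The 9 genes together held 25724 to 67467 counts in a control sample and 9981 to 22420 in a stress sample. The libraries held 31471145 to 39014775 counts in all (control group) and 25978683 to 29655725 (stress group), and haemoglobin genes took 51.9% to 63.8% and 61.2% to 75.5% of them. Library scaling used TMM, a method which takes most genes as unchanged, and levels are given as CPM, the counts divided by the scaled size of the library. The factors of TMM were 1.01 to 1.77 for control samples and 0.507 to 1.10 for stress samples. Stress replicate 3 stood apart, with the lowest TMM factor and the largest haemoglobin share. It also had lower counts of long genes relative to short genes, which is described with the exon lengths.

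Stretches of sequence upstream of the RefSeq start of Cd22, Cd72 and Btk are shown because the first pair of genes had the largest decreases and Btk the smallest. They are RefSeq windows of the GRCm38.p6 build on the strand of each gene, without bases that lie in an exon of the same gene in the GENCODE M21 annotation. The window of Cd22 is chr7:30879029-30879176 (minus strand), that of Cd72 is chr4:43454629-43454876 (minus strand) and that of Btk is chrX:134583141-134583390 (minus strand). GENCODE also lists transcripts of Cd22 and Btk that start farther upstream, so that both of these stretches lie inside the gene as GENCODE annotates it, between its exons, while that of Cd72 lies outside the gene. Capitals mark the EBF1 motif in Cd22 (TCCC and GGGA with 2 free bases between them) and, on the opposite strand, the PU.1-type ETS motif GAGGAAGT in Cd72. Both factors are known regulators of B cell genes.
Cd22: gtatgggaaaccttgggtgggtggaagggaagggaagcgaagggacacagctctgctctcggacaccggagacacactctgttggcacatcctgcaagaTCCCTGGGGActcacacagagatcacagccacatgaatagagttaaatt
Cd72: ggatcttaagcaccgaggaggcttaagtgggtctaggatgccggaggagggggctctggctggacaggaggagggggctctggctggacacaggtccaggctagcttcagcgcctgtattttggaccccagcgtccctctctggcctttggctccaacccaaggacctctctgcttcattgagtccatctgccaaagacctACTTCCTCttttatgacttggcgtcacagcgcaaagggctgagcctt
Btk: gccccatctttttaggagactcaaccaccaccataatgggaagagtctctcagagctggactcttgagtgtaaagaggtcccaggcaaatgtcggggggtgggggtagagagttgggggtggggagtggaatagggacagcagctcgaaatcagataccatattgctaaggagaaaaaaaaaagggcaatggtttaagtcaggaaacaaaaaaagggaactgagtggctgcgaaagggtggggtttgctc

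Both strands of the 250 bases before each RefSeq start were searched for 6 motifs. Of these windows, that of Blnk lies wholly in GENCODE exons of Blnk, and those of Cd79a and Cd22 have 116 and 102 bases in exons of their gene. The EBF1 motif lay 49 to 40 bases before the start of Cd22 and was found in 0.779% of 32851 RefSeq windows of this length. The ETS motif lay 49 to 42 bases before the start of Cd72 and was found in 2.44% of the windows. The octamer ATGCAAAT, found in 1.6% of all windows, was present in the window of Blnk, thus in annotated exon sequence, and TATAAA, found in 12.4%, in that of Bank1 only. The windows of Cd79a and Btk held none of the 6 motifs, and no window of the 6 genes with an entry held the GC box GGGCGG (32.7% of all windows) or the palindromic glucocorticoid response element, in which AGAACA and TGTTCT stand 3 bases apart (3 of all windows). A match of letters is a description of the sequence and not a binding site, and the search would miss a site with other letters.

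In the blood of stressed mice, all 9 genes had log2 fold changes below 0, as had 52.9% of all tested genes. Of the 9 genes, 5 fell in edgeR's quasi-likelihood test (adjusted p below 0.05 after Benjamini-Hochberg adjustment over 11718 genes), namely Cd22, Blk, Cd72, Bank1 and Blnk. Among all tested genes, 3.69% were lower by the same rule. Cd22 and Blk were also lower at an adjusted p below 0.01, as were 0.324% of all tested genes. The decreases of these 5 genes ranged from 23.8% for Blnk to 39.4% for Cd22. Cd79a, Cd79b, Btk and Ms4a1 had lower means without passing the test. No gene of the 9 was higher, while 10.4% of all tested genes were. The median log2 fold change of the 9 genes was -0.39, beside -0.02 for all tested genes.

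None of the 9 genes passed the thresholds of the study, an absolute log2 fold change above 1 with an adjusted p below 0.01, which 1.71% of all tested genes passed in either direction and 0.0171% as a decrease. With DESeq2 the count was also 0, and 6 of the 9 genes had an unadjusted p below 0.05 in edgeR, as did 31.2% of all tested genes in either direction. In 4 of the 9 genes every stress sample lay below every control sample, an order found in 9.87% of all tested genes. The sum over the 9 genes was 885 ± 92.8 CPM (SD, n = 4) in the control group and 685 ± 85.6 CPM in the stress group, and the ranges of 799 to 975 and 561 to 758 did not overlap. In whole blood, fewer B cells and less RNA per B cell cannot be told apart.

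**Figure D1:**
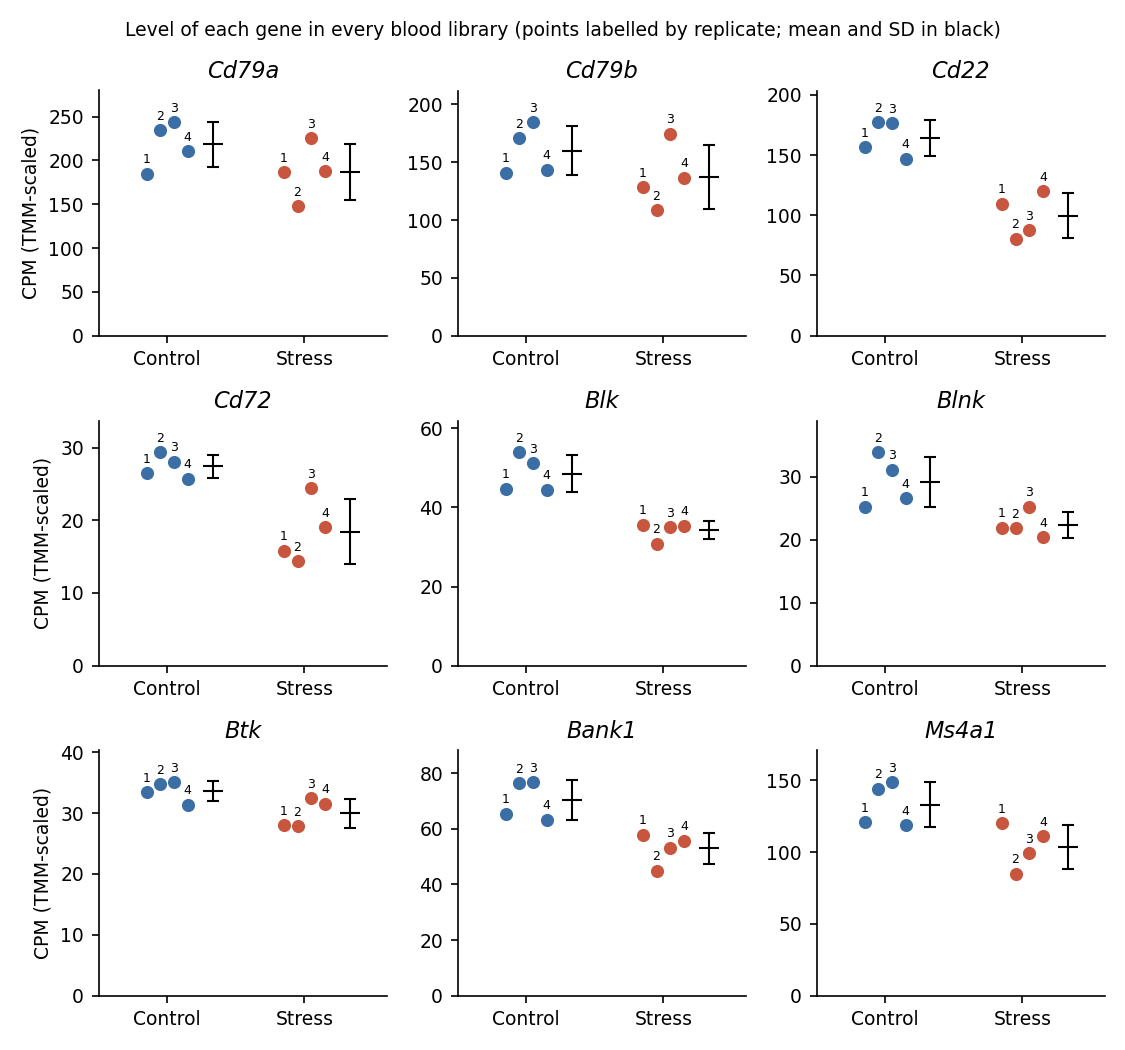
Level of each of the 9 genes in CPM (vertical axis, from 0) in the 4 control and 4 stress samples, with points numbered by replicate and the mean with SD in black. In Cd22, Cd72, Blk and Bank1 the groups do not overlap, and in the other genes they do.

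Cd79a and Cd79b, the signalling chains of the receptor, were the most abundant of the 9 genes per length of exon. Cd79a (chromosome 7, 24897381 to 24902197, plus strand, GRCm38) was at 185.0, 234.3, 243.4 and 210.4 CPM in control replicates 1 to 4. In stress replicates 1 to 4 it was at 186.6, 147.7, 225.5 and 187.5 CPM. The groups overlapped, and stress replicate 3 exceeded the control replicates 1 and 4. The log2 fold change of Cd79a was -0.22 with a standard error (SE) of 0.15 and a 95% interval from -0.56 to 0.11 (edgeR's quasi-likelihood test, adjusted p = 0.345).

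Cd79b (chromosome 11, 106311341 to 106314762, minus strand) had 140.8, 171.0, 184.4 and 143.5 CPM in the control samples. The stress samples had 128.2, 108.5, 174.8 and 136.7 CPM, with replicate 3 again the highest. The log2 fold change was -0.22 (SE 0.16, 95% interval -0.56 to 0.12) with an adjusted p of 0.360 in edgeR's quasi-likelihood test. Cd79a counts were 1.31, 1.37, 1.32 and 1.47 times those of Cd79b in the control samples. The ratios in the stress samples were 1.46, 1.36, 1.29 and 1.37, so that both chains were measured in nearly the same proportion, with a difference of 0.0025 on the log2 scale (two-sided exact permutation test over 70 assignments, p = 0.971).

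Cd22 and Cd72, the inhibitory coreceptors, had the largest decreases of the 9 genes. Cd22 (chromosome 7, 30865402 to 30880342, minus strand) was at 156.5, 177.1, 176.4 and 147.0 CPM in the control samples. It was at 109.8, 80.4, 87.5 and 120.2 CPM in the stress samples, all below the lowest control sample. The mean was 164.3 ± 14.95 CPM in control and 99.5 ± 18.6 CPM in stress samples (SD, n = 4), and the log2 fold change was -0.72 (SE 0.15, 95% interval -1.04 to -0.41, edgeR's quasi-likelihood test, adjusted p = 0.0065). On the linear scale this was a decrease of 39.4%, with an interval from 24.5% to 51.3%.

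Cd72 (chromosome 4, 43446462 to 43454628, minus strand) had 26.5, 29.3, 28.1 and 25.7 CPM in the control group. In the stress group it had 15.8, 14.4, 24.4 and 19.0 CPM, and stress replicate 3 came close to the lowest control sample without reaching it. The log2 fold change of -0.58 (SE 0.14, 95% interval -0.89 to -0.27) passed edgeR's quasi-likelihood test with an adjusted p of 0.0185. This call depended on single samples, since the adjusted p rose to 0.068 without control replicate 2, 0.052 without control replicate 3, 0.074 without stress replicate 1 and 0.072 without stress replicate 2 (edgeR). Of the exon bases of Cd72, 41.58% are shared with Tesk1 on the opposite strand, and the strand setting of the counting is not given in the sources used here, so that reads of both genes may not have been told apart. Tesk1, a kinase gene, was at 10.8 ± 1.21 CPM in the control group and 9.60 ± 0.618 CPM in the stress group (log2 fold change -0.17, edgeR, adjusted p = 0.362). Cd22 shares 9.5% of its exon bases with the antisense gene Gm29439.

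Blk and Btk encode tyrosine kinases of the receptor pathway, the first a SRC family kinase and the second the kinase that activates phospholipase C gamma. Blk (chromosome 14, 63372836 to 63417037, minus strand) was at 44.7, 53.9, 51.2 and 44.5 CPM in the control samples. It was at 35.6, 30.8, 35.1 and 35.4 CPM in the stress samples, which lay close together except for replicate 2 and did not overlap with the control samples. The log2 fold change was -0.51 (SE 0.11, 95% interval -0.73 to -0.28, edgeR's quasi-likelihood test, adjusted p = 0.0074). Cd22 and Blk stayed below an adjusted p of 0.05 in each of 19 alternatives, which included leaving out every sample in turn.

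Btk (chromosome X, 134542336 to 134583570, minus strand) had 33.4, 34.8, 35.0 and 31.3 CPM in the control samples. The stress samples had 27.96, 27.8, 32.5 and 31.5 CPM, of which replicates 3 and 4 lay within the control range. With a log2 fold change of -0.17 (SE 0.10, 95% interval -0.38 to 0.04), Btk did not pass (edgeR's quasi-likelihood test, adjusted p = 0.264). Btk is also transcribed in myeloid cells and platelets, for which higher marker levels were measured under stress, and their part in the level of Btk was not tested.

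Blnk and Bank1 encode an adaptor and a scaffold of B cell receptor signalling. Blnk (chromosome 19, 40928927 to 40994535, minus strand) was at 25.3, 33.9, 31.1 and 26.6 CPM in the control samples. It was at 21.9, 21.8, 25.3 and 20.4 CPM in the stress samples, and stress replicate 3 just exceeded the lowest control sample. The log2 fold change of -0.39 (SE 0.12, 95% interval -0.65 to -0.14) was near the limit of the test (edgeR's quasi-likelihood test, adjusted p = 0.0426). Leaving out any one of 6 samples, control replicates 2, 3 and 4 and stress replicates 1, 2 and 4, ended the call, with adjusted p-values of edgeR between 0.059 and 0.153.

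Bank1 (chromosome 3, 136053363 to 136326066, minus strand) had 65.4, 76.4, 76.6 and 63.2 CPM in the control group. The stress group had 57.9, 44.9, 53.1 and 55.7 CPM, all below the control samples. The decrease was -0.41 on the log2 scale (SE 0.12, 95% interval -0.66 to -0.16, edgeR's quasi-likelihood test, adjusted p = 0.0338). The call was lost without control replicate 1, 2 or 3 or without stress replicate 2, where the adjusted p of edgeR was 0.053, 0.115, 0.105 and 0.109.

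Ms4a1 (chromosome 19, 11249675 to 11266241, minus strand) was at 120.9, 144.2, 148.5 and 118.8 CPM in the control samples. It was at 120.2, 84.9, 99.4 and 111.1 CPM in the stress samples, and only replicate 1 reached into the control range. The log2 fold change was -0.36 (SE 0.14) and its 95% interval from -0.66 to -0.06 did not include 0. After adjustment over all tested genes it did not pass (edgeR's quasi-likelihood test, adjusted p = 0.0982).

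Levels per kilobase of exon were used to compare the genes with each other. The order of means was the same in both groups, namely Cd79a, Cd79b, Cd22, Ms4a1, Blk, Btk, Bank1, Cd72 and Blnk. The length counts all annotated exons of a gene together. It is 6187 bases for Ms4a1 and 7486 for Bank1, whose longest transcripts have 3075 and 4235 bases. The order and the overlaps thus depend on this choice of length. Cd79a was at 149.8 ± 17.96 CPM per kilobase in the control group and 128.2 ± 21.8 under stress, and Blnk at 4.88 ± 0.666 and 3.73 ± 0.345 (SD, n = 4). Between these ends, Cd22 was at 32.6 and 19.7 and Ms4a1 at 21.5 and 16.8 CPM per kilobase. The ranges of Cd22 and Ms4a1 were apart in the control group and overlapped in the stress group. Cd79a and Cd79b overlapped in both groups, as did Bank1 and Cd72. Btk overlapped with Bank1 and Ms4a1 with Blk in the control group only, and Cd72 with Blnk in the stress group only.

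The size of the decreases depended on the scale. Scaled by library totals alone, the 9 genes had log2 fold changes from -0.97 for Btk to -1.49 for Cd22, all 9 were lower at an adjusted p below 0.05 and 8 passed the thresholds of the study (edgeR). Of all 11718 tested genes, 5811 were lower at that adjusted p and 729 passed those thresholds as a decrease. On that scale the median of all tested genes was -0.82. Relative to that median the 9 genes lay between -0.15 for Btk and -0.66 for Cd22, and with TMM they lay between -0.14 and -0.70 relative to the median of all tested genes. With library totals counted without the haemoglobin genes, all 9 were lower at an adjusted p below 0.05, as were 3946 of all tested genes (edgeR). Of the 9, Cd22 and Cd72 passed the thresholds of the study (log2 fold changes -1.12 and -1.002, median of all tested genes -0.43). Of all tested genes, 136 passed these thresholds as a decrease.

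Exon length moved with the groups. When the genes were divided into 5 equal bins by exon length, the median log2 fold change was 0.15 in the bin of the shortest genes (303 to 2557 bases) and -0.16 in that of the longest (7667 to 123179 bases). Per sample, the longest bin minus the shortest was 0.11 to 0.21 on the log2 scale in the control samples and -0.10 to 0.07 in stress replicates 1, 2 and 4, with -0.65 in stress replicate 3. Cd79a and Cd79b, with 1457 and 1431 exon bases the shortest of the 9 genes, had decreases while the 500 genes nearest in length had median log2 fold changes of 0.16 and 0.18. For Bank1 (7486 bases) and Ms4a1 (6187 bases), the corresponding medians were -0.11 and -0.09.

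With offsets for exon length in every sample, a correction chosen after seeing the data, Cd79a and Cd79b had log2 fold changes of -0.44 and -0.44 and passed (edgeR's quasi-likelihood test, adjusted p = 0.0402 and 0.0340). Cd22, Cd72 and Blk passed as well, at -0.70, -0.63 and -0.60 (adjusted p = 0.0033, 0.0063 and 0.0019 in edgeR). Blnk and Bank1 no longer passed, at -0.33 and -0.33 (edgeR, adjusted p = 0.0802 and 0.0590). The offsets took all annotated exons together as the length, 5991 bases for Blnk and 7486 for Bank1. Their longest transcripts have 4534 and 4235 bases, and offsets from transcript length were not tested. The count was thus again 5 of the 9 genes, of which Cd22, Cd72 and Blk were called with and without the offsets. With the offsets, 419 of 11339 genes were lower at an adjusted p below 0.05 (edgeR). Without stress replicate 3 and without offsets, Cd79a was at -0.31 and Cd79b at -0.35 (edgeR, adjusted p = 0.151 and 0.096), and Cd22, Cd72, Blk, Blnk and Bank1 still passed.

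**Figure D2:**
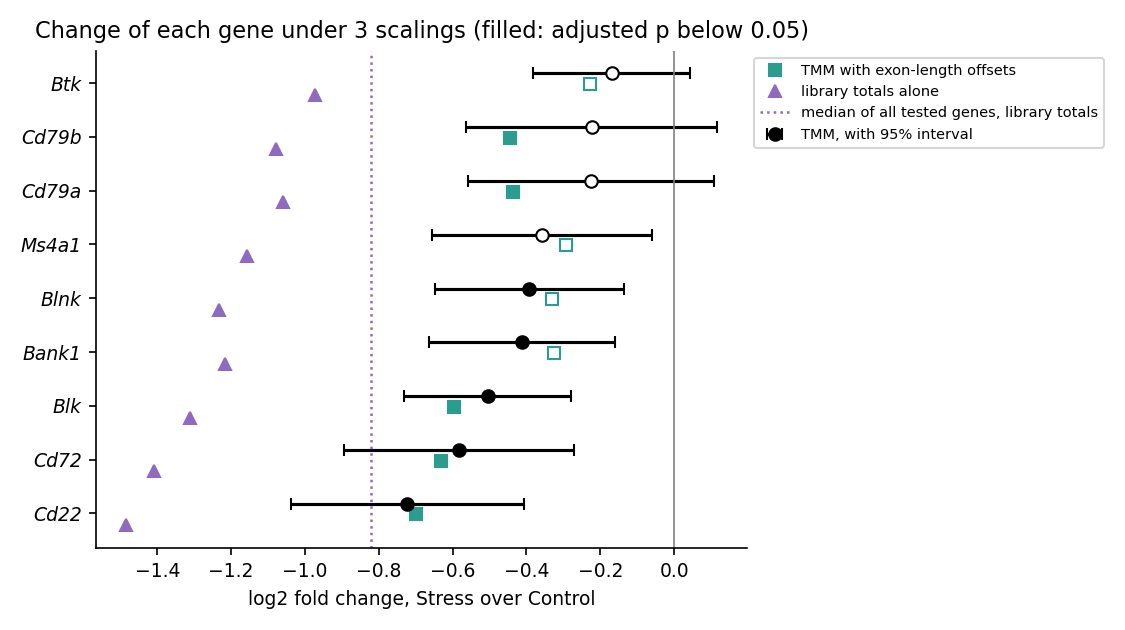
Log2 fold change of each gene in the stress group over the control group (horizontal axis) with TMM and its 95% interval (circles), with TMM and offsets for exon length (squares) and on library totals alone (triangles), where filled symbols have an adjusted p below 0.05 and the dotted line is the median of all tested genes on library totals. Every value lies below 0, and Cd22, Cd72 and Blk are filled on all 3 scales.

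To ask whether the genes differed in their decrease, each was divided by the geometric mean of Cd79a and Cd79b in the same sample, a ratio that library scaling does not change. Cd22 counts were 0.969, 0.885, 0.833 and 0.846 times this receptor pair in the control samples. In the stress samples the ratios were 0.710, 0.635, 0.441 and 0.751, all below the control samples, with stress replicate 3 the lowest. The mean difference was -0.50 on the log2 scale, a ratio 29.5% lower, with the smallest p that 4 samples against 4 allow (two-sided exact permutation test, p = 0.0286, 0.114 after Benjamini-Hochberg adjustment over 8 ratios). Without stress replicate 3 the difference was -0.34, and with offsets for exon length it was -0.27.

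Cd72 was at 0.164, 0.147, 0.133 and 0.148 times the receptor pair in the control samples. The stress samples were at 0.102, 0.114, 0.123 and 0.119, also without overlap. The ratio was 22.5% lower (log2 difference -0.37, two-sided exact permutation test, p = 0.0286, adjusted p = 0.114). With offsets for exon length the groups overlapped and the difference was -0.21 (exact permutation test, p = 0.171). Against Ms4a1 in place of the receptor pair the ratio of Cd72 differed by -0.24 (exact permutation test, p = 0.314), and against 5 B cell markers by -0.09 (exact permutation test, p = 0.686), with overlap of the groups in both cases.

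The ratio of Blk differed by -0.27 on the log2 scale (exact permutation test, p = 0.0571, adjusted p = 0.152) and that of Bank1 by -0.18 (exact permutation test, p = 0.114, adjusted p = 0.229). Blnk, Ms4a1 and Btk differed by -0.15, -0.13 and 0.06, with adjusted p-values of the exact permutation test of 0.366, 0.648 and 0.686. None of the 8 ratios passed an adjusted p of 0.05, which shows neither that the genes decreased to the same extent nor that they did not. With offsets for exon length the differences of Blnk, Bank1 and Ms4a1 were above 0, at 0.12, 0.12 and 0.14.

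**Figure D3:**
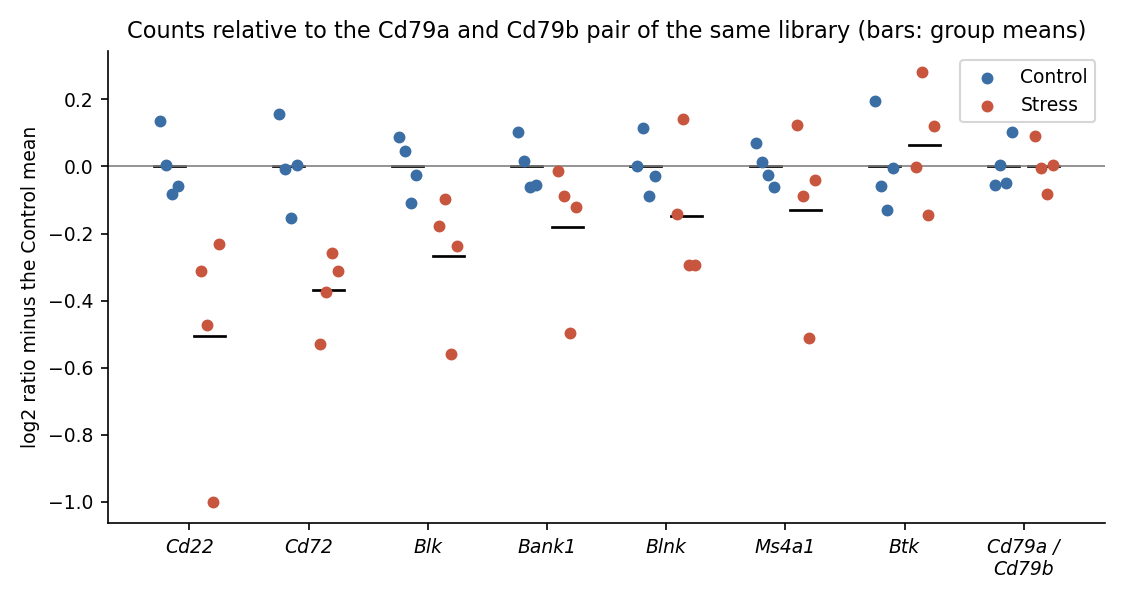
Log2 ratio of each gene to the geometric mean of Cd79a and Cd79b in the same sample (for the last column, of Cd79a to Cd79b), minus the mean of the control group, with a point for each of the 4 control and 4 stress samples and bars for group means. Cd22 and Cd72 are the genes without overlap of the groups, and the lowest point of every column except Cd72 is stress replicate 3.

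A list of 71 other genes of the receptor pathway did not move in one direction. All were tested, 37 had lower and 34 had higher means in the stress group, and their median log2 fold change was -0.04. By edgeR's quasi-likelihood test, 6 (8.45%) were lower and 12 (16.9%) were higher at an adjusted p below 0.05, beside 3.69% and 10.4% of all tested genes. No gene of the list passed the thresholds of the study. On library totals alone, 66 of the 71 genes had log2 fold changes below 0, and of the 12 genes higher with TMM 8 lay below 0 and none was called higher.

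Among the coreceptors, the complement receptor gene Cr2 fell from 50.5 ± 6.82 to 29.1 ± 5.40 CPM (log2 fold change -0.79, SE 0.14, edgeR, adjusted p = 0.0035), without overlap of the groups. Cd81, a tetraspanin of the same coreceptor complex that is widely expressed in other cells, rose from 37.7 ± 2.54 to 59.3 ± 7.97 CPM (log2 fold change 0.65, edgeR, adjusted p = 0.0032), but was at -0.16 on library totals. Ptprc, the phosphatase CD45 of all leukocytes, was at -0.19 (edgeR, adjusted p = 0.417). The decrease of Cr2 was thus close in size to that of Cd22 (-0.72), and Cd81 moved the other way on the TMM scale.

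Of the 3 proximal kinases beside Blk and Btk, Lyn rose with a log2 fold change of 0.49 (97.2 ± 5.43 to 136.7 ± 9.81 CPM, edgeR, adjusted p = 0.0124), but was at -0.27 on library totals and did not pass without control replicate 2 (edgeR, adjusted p = 0.059). Fyn was at 0.24 and Syk at 0.02 (edgeR, adjusted p = 0.114 and 0.923). LYN and SYK also serve receptors of myeloid cells and platelets, whose part in these levels was not tested.

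Of 19 adaptor, PI3K and VAV genes, 4 rose and none fell at an adjusted p below 0.05 (edgeR), namely the small GTPase gene Rac1 (log2 fold change 0.86), the docking proteins Gab1 (1.06) and Gab2 (0.96) and the kinase gene Akt2 (0.41), and on library totals they were at 0.09, 0.36, 0.29 and -0.39. The call of Akt2 was lost without any one of control replicates 1, 2 and 3 and stress replicates 1, 2 and 3 (edgeR, adjusted p between 0.062 and 0.149), that of Gab1 without control replicate 2 or 3 (0.064 and 0.054) and that of Gab2 without control replicate 2 (0.057). The lowest p-values among the genes with lower means belonged to Vav2, Pik3ap1 and Pik3r1, at -0.37, -0.41 and -0.21 (edgeR, adjusted p = 0.0608, 0.106 and 0.185). Pik3ap1 encodes BCAP, which links the receptor to PI3K.

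In the phospholipase, calcium and NFAT list of 12 genes, the calcium release channel Itpr1 fell (log2 fold change -0.61, edgeR, adjusted p = 0.0248). The store-operated calcium entry genes Orai1 and Stim1 rose by 0.70 and 0.35 (edgeR, adjusted p = 0.0040 and 0.0307), but were at -0.06 and -0.43 on library totals. Itpr1 no longer passed without control replicate 1, 2 or 3 or stress replicate 2 (edgeR, adjusted p between 0.054 and 0.078), nor did Stim1 without control replicate 1, 2 or 3 (0.076 to 0.111). Plcg2, the phospholipase downstream of Btk and Blnk, was at -0.15 (edgeR, adjusted p = 0.417).

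In the list of NF-kappaB and RAS signalling genes, Prkcb, which encodes protein kinase C beta, fell with a log2 fold change of -0.50 (124.6 ± 6.22 to 88.0 ± 17.4 CPM, edgeR, adjusted p = 0.0360). Bcl10, an adaptor of NF-kappaB signalling, and the kinase gene Mapk3 rose by 0.44 and 0.51 (edgeR, adjusted p = 0.0088 and 0.0200), but were at -0.35 and -0.29 on library totals. Prkcb was not called without control replicate 1, 2 or 3 or stress replicate 2 (edgeR, adjusted p between 0.076 and 0.104), nor was Mapk3 without control replicate 2 or 3 or stress replicate 1 (0.051 to 0.082).

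Of 15 inhibitors other than Cd22 and Cd72, Siglecg, a relative of Cd22 on B cells, fell with a log2 fold change of -0.53 (63.8 ± 4.72 to 44.3 ± 9.07 CPM, edgeR, adjusted p = 0.0239). This call ended without control replicate 2 or 3 or stress replicate 1 or 2 (edgeR, adjusted p between 0.065 and 0.087). Pirb and Pecam1, receptors of myeloid cells and of platelets and other cells, rose by 0.72 and 0.47 (edgeR, adjusted p = 0.0187 and 0.0161), and on library totals they were at 0.02 and -0.31. Pirb did not pass without control replicate 3 (edgeR, adjusted p = 0.056), nor Pecam1 without control replicate 2 or 3 (0.077 and 0.057). The B cell inhibitory Fc receptor Fcgr2b, which myeloid cells express too, was at -0.01 (edgeR, adjusted p = 0.970), and Ptpn6, the gene of SHP-1, was at -0.04 (edgeR, adjusted p = 0.864).

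**Figure D4:**
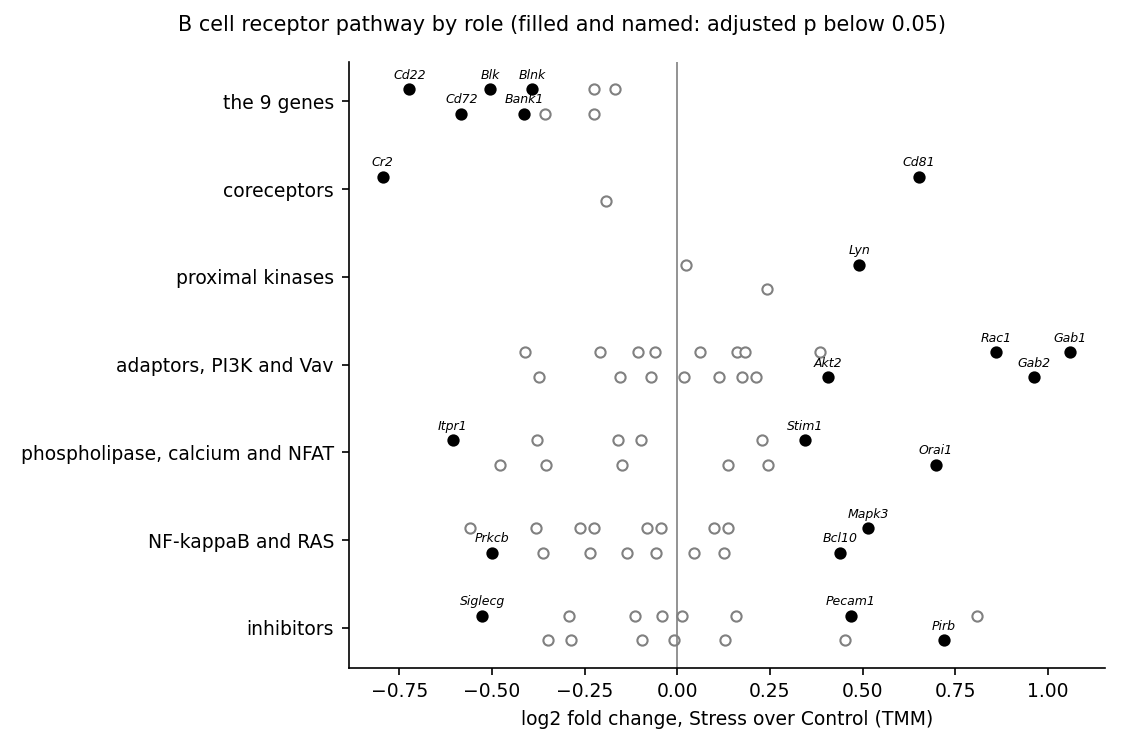
Log2 fold change on the TMM scale (horizontal axis) of the 9 genes and of the other pathway genes reported here by role, where each point is a gene and filled, named points have an adjusted p below 0.05. The filled points of the 9 genes all lie below 0, while those of the other lists lie on both sides.

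The marker genes of the blood cell types moved in different directions. Of 17 B cell markers that are not among the 9 genes, 9 fell and none rose at an adjusted p below 0.05 (edgeR), the median of their log2 fold changes being -0.45, and Cr2, Fcer2a (-0.72) and Pou2f2 (-0.63) had the smallest p-values. Their summed level was 1037 to 1258 CPM in the control samples and 729 to 915 CPM in the stress samples. Ighm, Ighd and Igkc were not analysed, as the count table has no rows under these symbols. This list and the pathway lists share genes, among them Cr2 and Siglecg. Ly6d, a B cell gene that plasmacytoid dendritic cells express as well, was at -0.10 (edgeR, adjusted p = 0.721).

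None of 15 T cell markers passed the test on the TMM scale (median -0.09, sums of 751 to 810 and 676 to 852 CPM). On library totals alone 11 were lower at an adjusted p below 0.05, as were 5811 of 11718 tested genes (edgeR). Of 10 natural killer cell markers Klrk1 alone fell on the TMM scale (log2 fold change -0.44, edgeR, adjusted p = 0.0487), with sums of 81.7 to 135 and 71.2 to 151 CPM. With RLE size factors, another library scaling, 0 of the 10 passed. On library totals alone 9 of the 10 were lower at an adjusted p below 0.05 (edgeR). Neutrophil markers rose in 10 of 13 cases (median 1.48, 0.72 on library totals, sums of 195 to 387 and 609 to 898 CPM). Monocyte markers rose in 7 of 12 cases (median 1.22, sums of 438 to 565 and 793 to 1361 CPM), and on library totals their median was 0.54 with 5 of the 12 below 0. All 10 platelet markers rose (median 0.99, sums of 1421 to 2146 and 3290 to 3935 CPM), and on library totals their median was 0.23 and none passed. All 9 immature red cell markers had log2 fold changes above 0 (median 1.06, 0.24 on library totals), of which Hba-a2 alone passed (1.37, edgeR, adjusted p = 0.0346, 0.45 on library totals). The part of these shifts in the decreases of the 9 genes was not tested.

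**Figure D5:**
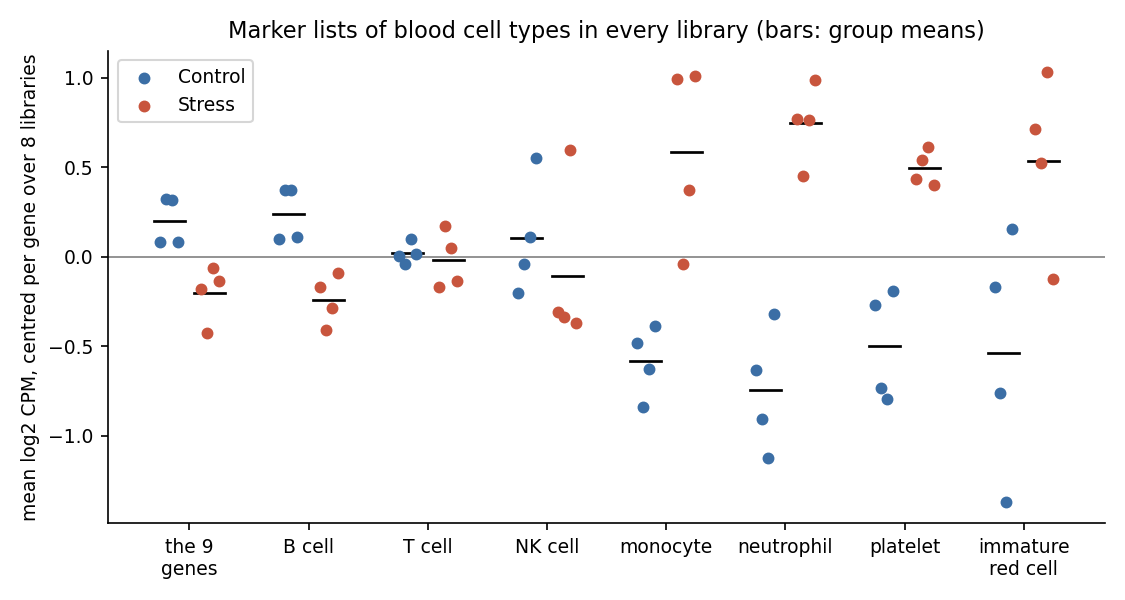
Mean log2 CPM of the 9 genes and of the marker lists (vertical axis), centred per gene over the 8 samples, with a point for each control and stress sample and bars for group means. The 9 genes and the B cell markers are lower in every stress sample than in every control sample. The T cell, natural killer cell and immature red cell markers overlap, and the monocyte, neutrophil and platelet markers are higher in every stress sample.

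Outside the 9 genes, the 10 tested genes whose profile over the 8 samples lay nearest to the mean profile of the 9 were Map4k1, H2-Ob, Ephx1, Cd37, Hvcn1, Sbk1, Parp1, Fcmr, Fen1 and Pacsin1. Nearness was measured as the root mean square distance of centred log2 CPM, which was 0.0646 to 0.0833 for these genes and 0.344 for the median tested gene. Their log2 fold changes lay between -0.30 and -0.49, which follows from choosing them for nearness over these same samples. Of the 9 genes, Bank1 was nearest to the mean profile (0.0613) and Cd22 farthest (0.222). Each of the 9 genes is part of that mean, so that these distances cannot be compared with those of other genes. H2-Ob, Cd37, Hvcn1 and Fcmr are known from B cells, H2-Ob as a chain of an MHC class II modulator and Fcmr as the receptor for the Fc part of IgM.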

How the data were processed

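The authors sequenced libraries made with a TruSeq kit and deposited raw read counts for 21878 gene symbols in 8 samples, without normalization. HISAT2, featureCounts and mm10 are named in the submitters' processing notes, while versions, annotation and strand setting are not given in the sources used here. The 9 genes, the gene lists and the tests were chosen with earlier results of these data known. All 8 samples were grouped by their labels, and the 11718 genes that reached 10 counts in 4 or more samples were tested with R 4.3.3 and edgeR 4.0.16 (TMM, robust quasi-likelihood test, Benjamini-Hochberg adjustment). SE is the absolute log2 fold change divided by the square root of F. Raw counts of the 9 genes were 310 to 16844 per sample, and intervals reflect the spread between samples. The scripts were tested on simulated data. Ratios used counts plus 0.5 and exact permutation of the 70 sample assignments, which cannot give a p below 0.0286.

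Genes named are the 9 genes, up to 3 genes per list and direction with the smallest p, the 10 genes of nearest profile, genes overlapping one of the 9, and Akt2, Fcgr2b, Ptpn6, Plcg2, Ly6d and Tnfrsf17, which were chosen after their values were seen. Some genes of the lists are not reported here one by one, though they count in the totals. Coordinates and exon lengths are from GENCODE M21 (GRCm38), in which all 9 symbols matched. RefSeq upstream windows were supplied for 6 of the 9 genes. DESeq2 1.42.0, limma-voom (limma 3.58.1), other scalings, no count filter, a block for replicate number and the omission of single samples were the alternatives, and offsets for exon length (11339 genes) and GC content (lowess, span 0.3) were added after seeing the data.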

Additional observations from a re-analysis of the deposited data

Results flagged for a closer look

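Of 34 groups of 4 values that were checked (CPM of the 9 genes and 8 ratios in each group), 1 held a sample far from the others. Blk was at 30.8 CPM in stress replicate 2, and its gap to the next stress sample was 0.883 of the range of the group, above Dixon's 95% critical value. Chance flags about 1 in 20 groups. Without stress replicate 2 Blk still passed an adjusted p of 0.05 (edgeR).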

How the results depend on the processing

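Under 19 alternatives for each of the 9 genes, all 171 log2 fold changes were below 0. These values come from the same 8 samples and are not independent. In the main fit 52.9% of all tested genes were below 0. On library totals with and without haemoglobin genes the median of all tested genes was -0.82 and -0.43. The call at an adjusted p below 0.05 was as reported in 141, lost in 20 and gained in 10. The 5 lower genes became 9 on library totals alone, 9 on library totals without haemoglobin genes and 3 with GC offsets (beside 456 of 11339 genes). Without 1 sample they became 2 to 5 (2 without control replicate 2 or 3 or stress replicate 2). At the thresholds of the study the count of 0 became 8 and 2 on these totals. The 200 called among all genes became 319 with DESeq2, 743 on library totals and 77 (without control replicate 2) to 345 (without control replicate 4) without 1 sample. Higher and lower calls were 198 and 2 with TMM, 14 and 729 on library totals, and 57 and 136 on totals without haemoglobin genes. The 6 lower pathway genes became 40, 32 and 1 to 11 (library totals, totals without haemoglobin genes, leaving out 1 sample) and the 12 higher ones 0, 3 and 5 to 14. Among all tested genes, the 432 lower ones became 5811, 3946 and 81 to 727 in the same order. The 1223 higher ones became 52, 551 and 617 to 1425. Deviations of same-numbered samples had correlations of -0.16 to 0.06, and those of differently numbered samples -0.08 to 0.11. Such values cannot show whether the numbers pair the samples. With the replicate block, 3 of the 9 genes (Cd22, Cd72 and Blk) and 3 pathway genes were lower, beside 240 of all tested genes. No paired ratio test could go below p = 0.125 (exact).

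Against a reference of 5 B cell markers in place of the receptor pair, the ratios of Blk, Blnk, Bank1 and Ms4a1 changed sign to 0.014, 0.14, 0.10 and 0.15, and with length offsets those of Blnk, Bank1 and Ms4a1 to 0.12, 0.12 and 0.14. Without 1 sample the ratio of Btk ranged from -0.0076 to 0.13 and that of Cd79a to Cd79b from -0.027 to 0.036. The cause of these changes was not tested.

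Depth, 4 samples a group, the share of haemoglobin counts and the unknown strand setting limit these values. Ratios in this design cannot pass an adjusted p of 0.05 unless several reach the smallest p at once.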

Other observations

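The markers of plasma cells, the antibody-secreting form of the B cell, had values on both sides of 0. Xbp1, a transcription factor of secretory cells that other blood cells express too, rose from 15.1 ± 1.35 to 24.2 ± 3.41 CPM (log2 fold change 0.68, edgeR, adjusted p = 0.0033) but was at -0.09 on library totals, and none of the other 6 tested plasma cell markers passed. Irf4 was at -0.31, Jchain at 0.38 and Sdc1 at -0.34 (edgeR, adjusted p = 0.0627, 0.214 and 0.326). The summed level of the list was 58.5 to 64.6 CPM in the control samples and 57.5 to 71.4 CPM in the stress samples. Tnfrsf17, a defining plasma cell marker, had at most 6 counts in any sample. None of 5 tested markers of plasmacytoid dendritic cells passed (median log2 fold change -0.13), and Siglech, a defining marker of these cells, was at 0.952 and 0.502 CPM.

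Relative to the 5 B cell markers used as another reference, Btk was higher in every stress sample than in every control sample, with a log2 difference of 0.35. Ms4a1 was also higher in every stress sample, by 0.15, and Cd22 lower in every stress sample, with a difference of -0.22 (two-sided exact permutation test, p = 0.0286 each, adjusted p = 0.0857 over 9 ratios). Cd79a and Cd79b differed by 0.28 and 0.28 (exact permutation test, p = 0.0571 each, adjusted p = 0.103). None of these differences passed the adjustment.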
